A study of Mus musculus with 2 samples.

Results

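The genes described here encode ATP-driven chromatin remodelers of the SWI/SNF (BAF), ISWI, CHD and INO80 families, their subunits, and proteins with a bromodomain or an ARID domain. They were chosen by symbol, as every row of the count tables named Smarca to Smarce, Arid followed by a number and the letter a or b, Chd1 to Chd9, Chd1l, Pbrm1, Actl6a, Dpf1 to Dpf3, Ss18, Bcl7a to Bcl7c, a Brd gene, Brdt, a Baz gene, an Ino80 gene, Srcap, Ep400, Bptf or Hells. This gave 60 of 24062 genes. The symbol pattern itself uses no measured value, though it was chosen with earlier results of these data known. Srcap is not analysed here. Arid2, which the symbol pattern does not take in, is given beside the BAF genes and is not counted among the 60.

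RNA was sequenced from cells that the submitters name haematopoietic progenitor cells of the aorta. They came from C57BL6 mouse embryos at embryonic day 11 and were gated as CD31+ KITint. Markers of this and other cell types are given below. The cells were sorted on Gata2Venus, a fluorescent reporter of the blood transcription factor gene Gata2, into Gata2Venus − and Gata2Venus + cells. Each group held 1 library, called here the negative library (10135400 counts in genes) and the positive library (9715131 counts). The labels name neither the number of embryos nor that of cells per library. With 1 library per group there was no replicate check, no test and no p-value, and every difference is between these 2 libraries. Counts are given as read, and levels as CPM, the share of the counts in genes on a fixed total, scaled by TMM, a method that sets the libraries to a common centre of their gene ratios. Intervals, and the limits given beside a value, are exact 95% bounds that cover counting error only. Reads copied by PCR and not tagged by molecule are not independent, so these bounds can be too narrow. Values set against each other have the negative library first. Log2 ratios are of negative over positive, so that values above 0 mean a higher level in the negative library. In such bulk libraries fewer cells of a type and less RNA per cell cannot be told apart.

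Chromatin remodelers use the energy of ATP to slide, eject or exchange nucleosomes, and so open or close DNA to transcription factors. BAF complexes open enhancers and promoters, ISWI complexes space nucleosomes, CHD proteins include the ATPases of the repressive NuRD complex, and INO80 and EP400 complexes exchange histone variants. A bromodomain binds acetylated lysines on histones, and an ARID domain binds DNA. Many subunits come in paralogues that exclude each other in a complex, and BAF and NuRD are both known as partners of blood transcription factors such as RUNX1 and GATA1.

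The sort gene and cell type markers were read first. Gata2 had 141 (negative) against 664 (positive) counts, the direction of the labels, Pecam1 (CD31) was at 537 against 489 CPM and Kit at 199 against 60.7 CPM. Among 10 haematopoietic markers 5 were past the rule of size described below and higher in the positive library, Kit went the other way, and Gfi1b and Myb were at 0 counts in the negative library. Summed over each marker list, the negative and positive libraries held 822 and 1287 CPM of haematopoietic, 2845 and 5216 CPM of endothelial, 191 and 938 CPM of macrophage and 99.99 and 528 CPM of megakaryocyte genes. Most of the haematopoietic sum of the negative library came from Cd34 (455 against 759 CPM) and Kit, and Kit is also on the germ cell list. Runx1, on the haematopoietic list too, had 21 against 303 counts (log2 ratio −3.99). The mesenchymal and smooth muscle list summed to 7709 and 4792 CPM, with 6 of 10 genes past the rule and higher in the negative library. The germ cell list summed to 519 and 97.6 CPM. Of its 8 genes 7 had the higher value in the negative library, 6 of them past the rule, Kit included, and Dazl was at 0 counts in the positive library. Past the rule and higher in the positive library were 8 of 9 measured macrophage, 5 of 10 endothelial, 7 of 10 megakaryocyte and 3 of 8 erythroid genes, and by value alone 9, 9, 10 and 5 of them were higher there. The erythroid list summed to 325 and 259.7 CPM and was split. Gata1, Klf1, Epor, Car1 and Hemgn were at 0 counts in the negative library, whereas the globin genes Hba-x (825 against 331 counts), Hbb-bh1 (1077 against 528 counts) and Hbb-y (1485 against 812 counts) had the higher value there. The megakaryocyte genes Gp1bb and Gp5 were also at 0 counts in the negative library. The part of these cell types in the remodeler results was not tested.

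Most remodeler genes, like most genes, differed by less than 2-fold between the libraries, BAF genes more often had the higher value in the negative library, and the INO80 ATPase gene was nearly absent from it. Of the 60 genes 58 had a count in the negative and 57 in the other library. Genes were called measured from a total of 20 counts upwards, which 57 of the 60 reached. Chd5 was at 0 counts in both libraries, and Smarcd3 and Dpf1 had too few counts. The rule of size asked for 10 CPM and 50 counts in the higher library and for both limits of the ratio beyond 2-fold. By this rule 11 of the 57 measured remodeler genes were higher in the negative library, against a background of 12.6% of all 12544 measured genes, and 5 were higher in the positive library, against 12.3%. As shares of the 57, these counts are 19.3% and 8.77%. Among the 54 remodeler genes that reached the level the rule asks for in either library, the shares were 20.4% and 9.26%, beside 15.2% and 14.9% of 10381 genes.

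The median log2 ratio of the 57 genes was 0.35, beside −0.01 for all measured genes, and 37 of them differed by less than 2-fold, beside 55.9% of all measured genes. For 34 of the 57 both limits lay above a log2 ratio of 0, beside 42.3% of all measured genes, and for 21 below it, beside 43.0%. Together the 60 genes took 0.622% of all gene counts of the negative library, against 0.504%. The 11 genes past the rule and higher in the negative library were Arid1b, Smarcc2, Brd9, Dpf2, Dpf3, Ss18, Chd2, Chd3, Chd6, Baz2a and Arid5a. The 5 genes past it and higher in the positive library were Ino80, Ino80c, Chd1, Baz1a and Arid4b. When libraries were assumed to vary by a coefficient of variation of 0.4 beyond counting, only Arid1b, Dpf3 and Arid5a (against 5.09% of all measured genes) and Ino80 (against 5.44%) were still past the rule.

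**Figure D1:**
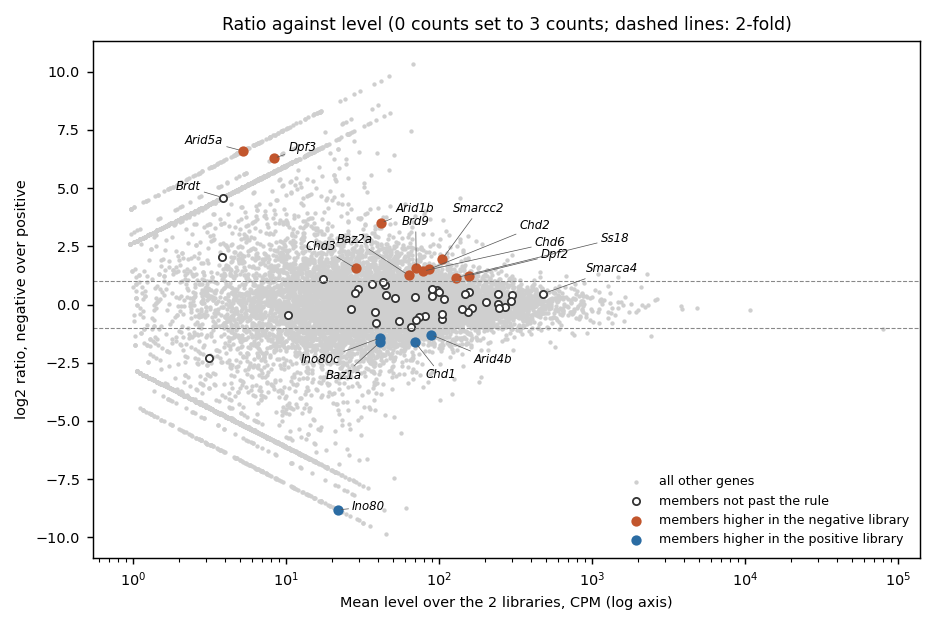
The log2 ratio of negative over positive is plotted against the mean level in CPM on a log axis, with 1 point per measured gene and 0 counts set to 3 counts. The 57 measured remodeler genes lie within the cloud of all other genes, with 11 genes past the rule above the upper dashed line (orange), 5 below the lower one (blue) and Ino80 far below the other remodeler genes.

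The measured genes of BAF ATPases and shared subunits had higher values in the negative library throughout. Among those with too few counts, Dpf1 had 6 against 0 counts and Smarcd3 0 against 12 counts. All 15 measured genes of these 2 role groups had a log2 ratio above 0, beside 49.6% of all measured genes, and for 14 of them both limits lay above 0. Their median log2 ratio was 0.85, and 4 of the 15 were past the rule, beside 12.6% of all measured genes in this direction. With the subunits that define the forms of BAF added, 18 of 20 measured genes had a log2 ratio above 0. The median was then 0.76, and 6 of the 20 were past the rule and higher in the negative library. The symbol pattern fixes which BAF genes are counted here, and 5 measured BAF genes of the partner list outside it, given below, did not share this direction.

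Smarca4, one of the 2 alternative ATPases of BAF, had 5760 (negative) against 3800 (positive) counts, or 553 CPM with limits of 539 and 568 against 402 CPM with limits of 389 and 415. Its level was 1.38-fold higher in the negative library (log2 ratio 0.46 with limits of 0.40 and 0.52), which is not past the rule. Smarca2, the other ATPase, had 495 (negative) against 241 (positive) counts, and it leaned the same way, not past the rule (log2 ratio 0.90 with limits of 0.67 and 1.13). Per length of the annotated exons, Smarca4 was at 85.4 and 62.1 CPM per kilobase and Smarca2 at 3.33 and 1.79 CPM per kilobase, so that Smarca4 was the more abundant ATPase gene in both libraries.

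Among the shared subunits, the scaffold gene Smarcc2 (chromosome 10, 128459248 to 128490482, mm10) showed the widest difference of those with at least 100 CPM in a library. It had 1744 (negative) against 407 (positive) counts, or 168 CPM with limits of 159.7 and 176 against 43.03 CPM with limits of 38.95 and 47.4, and was 3.89-fold higher in the negative library (log2 ratio 1.96 with limits of 1.80 and 2.12). Its paralogue Smarcc1, which had the higher level per exon length in both libraries, had 2943 (negative) against 1950 (positive) counts (log2 ratio 0.46 with limits of 0.37 and 0.54) and was not past the rule. The difference was thus wider for Smarcc2 than for Smarcc1, and their intervals do not overlap. Dpf2 (chromosome 19, 5896516 to 5913010), a subunit with PHD fingers that read modified histones, had 2294 (negative) against 880 (positive) counts and was 2.37-fold higher in the negative library (log2 ratio 1.24 with limits of 1.13 and 1.36). Ss18 (chromosome 18, 14624198 to 14682914), a subunit known from its fusion in synovial sarcoma, had 1866 (negative) against 761 (positive) counts and was 2.23-fold higher (log2 ratio 1.16 with limits of 1.03 and 1.28). Both lay close to the 2-fold limit of the rule.

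Dpf3, a paralogue of Dpf2 known from heart and muscle, was seen almost only in the negative library. It had 171 (negative) against 2 (positive) counts (log2 ratio 6.28 with limits of 4.40 and 9.34), at 16.4 against 0.211 CPM. Its level in the positive library was below the floor of 3 counts, or 0.317 CPM. Dpf1, the paralogue of neurons, had 6 against 0 counts, too few for a comparison.

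Apart from Bcl7c, the measured subunits not past the rule ranged from near equality to almost 2-fold. Smarcb1, a core subunit lost in rhabdoid tumours, was the most even, at 244 against 243 CPM (log2 ratio 0.01 with limits of −0.07 and 0.09). Smarce1, an HMG-domain subunit, was at 77.7 against 61.5 CPM (log2 ratio 0.34), and the actin-like gene Actl6a at 342 against 256 CPM (log2 ratio 0.42). Per length of all annotated exons, Actl6a and Smarca4 had the highest levels of all remodeler genes in both libraries, Actl6a at 87.99 and 65.9 CPM per kilobase. This length can exceed that of the transcripts present, so the ranking holds for this measure only. The antisense neighbour Mrpl47 covers 11.6% of the exons of Actl6a, and since use of strand in counting is not given, its count may hold or lose reads there. Of the alternative Smarcd subunits, Smarcd1 was at 117 against 76.6 CPM (log2 ratio 0.61) and Smarcd2, known for its role in granulocyte development, at 56.9 against 31.5 CPM (log2 ratio 0.85). Smarcd3, the heart and muscle form, had 0 against 12 counts, and Chpf2 overlaps 48.2% of its exons on the other strand. All 3 Bcl7 genes, which encode small BAF subunits, had the higher value in the negative library. Bcl7a was at 56.5 against 29.1 CPM (log2 ratio 0.96) and Bcl7b at 36.1 against 22.7 CPM (log2 ratio 0.67). Bcl7c had 64 against 14 counts, and though its interval lay beyond 2-fold (log2 ratio 2.05 with limits of 1.20 and 3.004) it stayed under the 10 CPM that the rule asks for.

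Subunits that define the forms of BAF did not move together. Arid1b (chromosome 17, 4994332 to 5347656), one of the 2 alternative ARID subunits of canonical BAF, had 796 (negative) against 64 (positive) counts, or 76.5 CPM with limits of 71.2 and 81.96 against 6.77 CPM with limits of 5.21 and 8.64. It was 11.3-fold higher in the negative library (log2 ratio 3.50 with limits of 3.13 and 3.89), and its intervals in the libraries were far apart. Arid1a, the alternative to Arid1b, went the other way in value, at 82.7 against 126 CPM (log2 ratio −0.60 with limits of −0.73 and −0.48), and was not past the rule. Brd9 (chromosome 13, 73937811 to 73960895), the bromodomain subunit of non-canonical BAF, had 1102 (negative) against 342 (positive) counts and was 2.93-fold higher in the negative library (log2 ratio 1.55 with limits of 1.37 and 1.73). Pbrm1, Brd7 and Arid2, subunits of the form PBAF, were close to even or modestly apart. Pbrm1, with its many bromodomains, had 1627 (negative) against 1630 (positive) counts (log2 ratio −0.14 with limits of −0.24 and −0.04). Brd7 was at 102 against 79.6 CPM (log2 ratio 0.35). Arid2, the ARID subunit of PBAF, was at 176 against 105 CPM (log2 ratio 0.74), not past the rule.

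Apart from Arid2, measured BAF genes outside the symbol pattern had the opposite lean in value, though Gltscr1l was not set apart from equality. The 5 measured genes of this partner list all had a log2 ratio below 0, with a median of −0.35. Past the rule and higher in the positive library were 2 of the 5, beside 12.3% of all measured genes. Ss18l1, a paralogue of Ss18 known from neuronal BAF, had 0 against 165 counts, with −5.61 as the limit of its log2 ratio nearest to 0. Phf10, a PBAF subunit, had 48 against 190 counts (log2 ratio −2.12 with limits of −2.61 and −1.66). Of the non-canonical BAF genes, Gltscr1 had 158 against 183 counts (log2 ratio −0.35 with limits of −0.67 and −0.04). Gltscr1l had 236 against 238 counts (log2 ratio −0.15 with limits of −0.42 and 0.12), an interval that holds 0. Actb, which serves the whole cell as actin, was at 9846 against 11734 CPM (log2 ratio −0.25), and Actl6b was at 0 counts in both libraries.

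**Figure D2:**
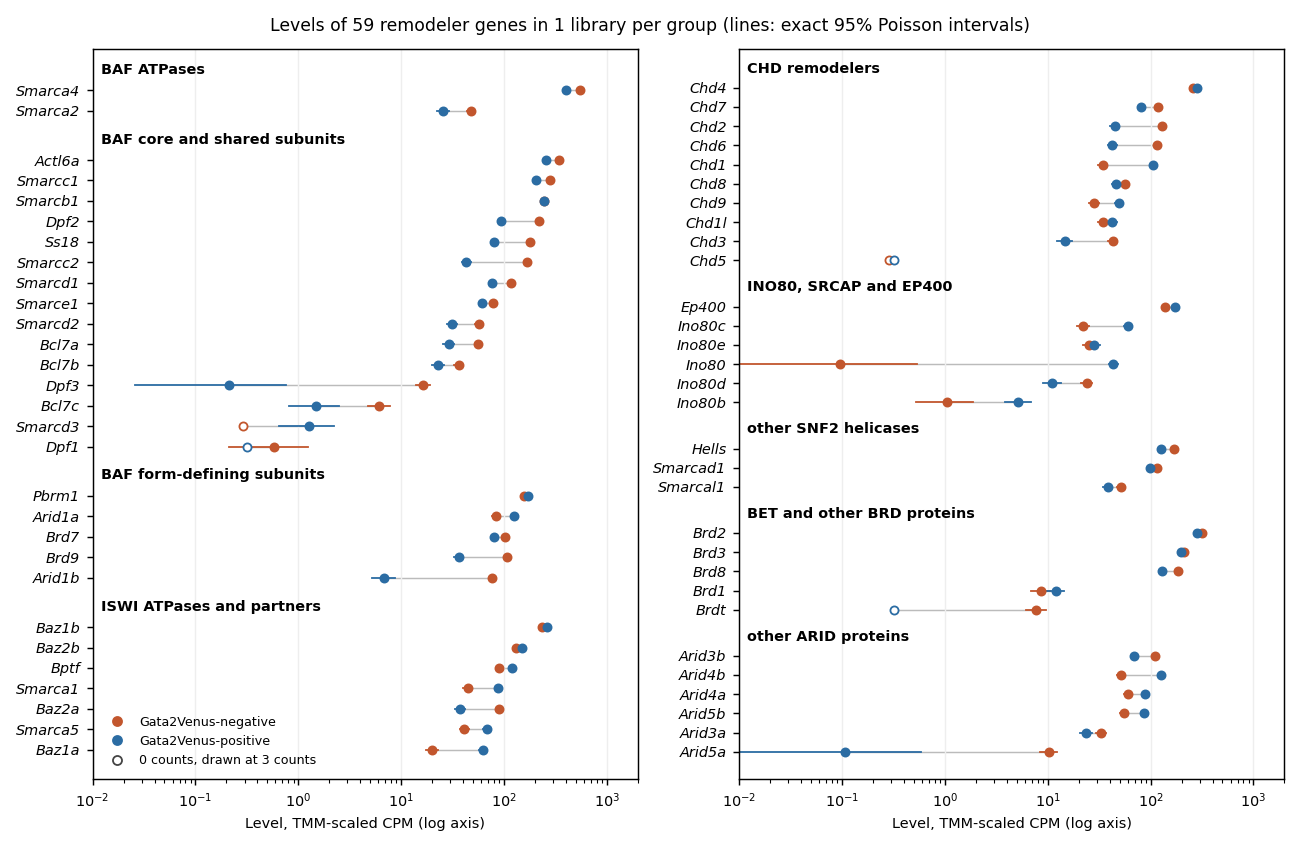
Levels of 59 of the genes are shown as TMM-scaled CPM on a log axis in the negative (orange) and positive (blue) library, with exact 95% Poisson intervals (those of Ino80 and Arid5a run off the left edge), and open symbols where a library had 0 counts. In the BAF groups on the left the orange points of all 15 measured ATPase and shared subunit genes lie to the right of the blue ones, whereas Ino80 on the right lies at 1 count against 411.

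Genes of ISWI remodelers had lower values in the negative library in 6 of 7 cases, with a median log2 ratio of −0.40. Over all measured genes 49.6% had the higher value there. In each direction 1 gene was past the rule, beside 12.6% and 12.3% of all measured genes in the negative and positive direction. The ATPase gene Smarca5 had 429 (negative) against 644 (positive) counts, or 41.2 against 68.1 CPM (log2 ratio −0.72 with limits of −0.90 and −0.55). Its paralogue Smarca1 had 461 (negative) against 824 (positive) counts, or 44.3 against 87.1 CPM (log2 ratio −0.98 with limits of −1.14 and −0.81). Neither was past the rule, and both were lower in the negative library by more than counting error. A processed pseudogene of Smarca5 had 1 count in each library, and reads that match both copies may have been left out as not unique.

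Baz1a (chromosome 12, 54892989 to 55014348), the partner of Smarca5 in the ACF and CHRAC spacing complexes, had 208 (negative) against 585 (positive) counts, or 19.98 CPM with limits of 17.4 and 22.9 against 61.9 CPM with limits of 56.9 and 67.1. It was 3.096-fold lower on the negative side (log2 ratio −1.63 with limits of −1.87 and −1.40). Baz2a (chromosome 10, 128091577 to 128129303), the subunit of the NoRC complex that silences ribosomal RNA genes, went the other way with 929 (negative) against 353 (positive) counts, 2.39-fold higher in the negative library (log2 ratio 1.26 with limits of 1.08 and 1.44). The other partners differed by less than 2-fold, with the lower value in the negative library. Baz1b was at 234 against 261 CPM (log2 ratio −0.16), Baz2b at 130.3 against 151 CPM (log2 ratio −0.21), and Bptf, the large subunit of NURF, at 90.2 against 119 CPM (log2 ratio −0.40). Of 5 further ISWI partner genes 0 were past the rule. Rsf1, a histone chaperone that pairs with Smarca5, had the highest ratio of these (91.2 against 43.1 CPM, log2 ratio 1.08), and Cecr2, Chrac1, Pole3 and Pole4 had log2 ratios from −0.41 to 0.56.

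CHD genes were split within their subfamilies. Of 9 measured genes 3 were past the rule and higher among negative cells, 1 among positive cells. Over all measured genes these shares were 12.6% and 12.3%, and the median log2 ratio of the 9 was 0.29. Chd1 (chromosome 17, 15704967 to 15772610), which binds promoters of active genes and is known for open chromatin in pluripotent cells, had 356 (negative) against 997 (positive) counts, or 34.2 CPM with limits of 30.7 and 37.9 against 105 CPM with limits of 98.97 and 112. It was 3.08-fold lower on the negative side (log2 ratio −1.62 with limits of −1.80 and −1.45). Chd2 (chromosome 7, 73426638 to 73541830), its closest paralogue, had 1337 (negative) against 423 (positive) counts, or 128 CPM with limits of 122 and 135 against 44.7 CPM with limits of 40.6 and 49.2, and was 2.87-fold higher (log2 ratio 1.52 with limits of 1.36 and 1.68). The order of the 2 counts was thus reversed between the libraries. An annotated transcript, 1810026B05Rik, covers 18.4% of the exons of Chd2 on the same strand, so its count is uncertain there.

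Of the NuRD ATPase genes, Chd4 was close to even and Chd3 was past the rule. Chd4 had 2706 (negative) against 2677 (positive) counts, or 259.9 against 283 CPM (log2 ratio −0.12 with limits of −0.20 and −0.05). Chd3 (chromosome 11, 69343273 to 69369406) had 445 (negative) against 138 (positive) counts, or 42.7 against 14.6 CPM, and was 2.93-fold higher in the negative library (log2 ratio 1.55 with limits of 1.27 and 1.84). Per length Chd4 exceeded Chd3 in both libraries, at 32.4 and 35.3 CPM per kilobase against 5.06 and 1.73 CPM per kilobase. Among 12 measured NuRD partner genes the median log2 ratio was 0.15. Beside 12.3% of all measured genes, 1 of the 12 was past the rule and higher in the positive library. This was Mbd2, which binds methylated DNA, with 17 against 145 counts (log2 ratio −3.23 with limits of −4.05 and −2.50), whereas its alternative Mbd3 was at 104 against 123 CPM (log2 ratio −0.25). Hdac2 (140.04 against 298 CPM, log2 ratio −1.09) and Mta3 (26.7 against 54.2 CPM, log2 ratio −1.02) differed by just over 2-fold without passing the rule.

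In the subfamily of Chd6 to Chd9, Chd6 (chromosome 2, 160946978 to 161109075) had 1194 (negative) against 401 (positive) counts and was 2.705-fold higher in the negative library (log2 ratio 1.44 with limits of 1.27 and 1.60). Chd9 had the opposite lean, at 28.05 against 49.1 CPM (log2 ratio −0.81 with limits of −1.02 and −0.59), without passing the rule. Chd7, mutated in CHARGE syndrome, was at 119 against 81.2 CPM (log2 ratio 0.55) and Chd8, mutated in autism, at 56.9 against 46.4 CPM (log2 ratio 0.29). Chd1l, a remodeler switched on by poly(ADP-ribose) at DNA damage, was at 34.1 against 42.5 CPM (log2 ratio −0.32).

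INO80 was the remodeler with the widest difference. Ino80 (chromosome 2, 119373042 to 119477687), its ATPase gene, had 1 against 411 counts, or 0.09605 CPM with limits of 0.00243 and 0.535 against 43.5 CPM with limits of 39.4 and 47.9. The log2 ratio was −8.82, with limits of −14.13 and −6.34. The level in the negative library was under the floor of 3 counts, or 0.288 CPM, so 1 count cannot be told from 0 at this depth. Such genes were not rare, since 3.12% of all measured genes had at most 3 counts in the negative and at least 100 in the positive library, and 3.2% the reverse. Ino80 was 1 remodeler gene of the first kind, and Dpf3 and Arid5a were 2 of the second.

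The small INO80 subunit genes had mixed values. Ino80c (chromosome 18, 24104757 to 24121953) had 231 (negative) against 568 (positive) counts, or 22.2 against 60.1 CPM, and was 2.71-fold lower on the negative side (log2 ratio −1.44 with limits of −1.66 and −1.21). Ino80b had 11 against 49 counts (log2 ratio −2.29 with limits of −3.39 and −1.33), an interval beyond 2-fold at a level below the rule. Ino80e was even, at 24.97 against 28.3 CPM (log2 ratio −0.18 with limits of −0.43 and 0.07), and Doc2a covers 14.4% of its exons on the other strand. Ino80d was higher in the negative library in value, at 23.8 against 11.1 CPM (log2 ratio 1.10 with limits of 0.77 and 1.44), with an interval that reached below 2-fold. Ep400, the ATPase of the other complex, was at 137 against 172 CPM (log2 ratio −0.33 with limits of −0.43 and −0.22).

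The further subunits of INO80 were read from a list that also holds genes of the SRCAP and TIP60 complexes. Of its 21 measured genes 2 were past the rule in each direction, beside 12.6% and 12.3% of all measured genes. The median log2 ratio of the 21 was 0.32. Higher in the positive library were Nfrkb, a scaffold found in INO80, with 4 against 415 counts (log2 ratio −6.84 with limits of −8.72 and −5.47), and Yy1, a DNA-binding factor that joins INO80, with 57 against 298 counts (log2 ratio −2.52 with limits of −2.96 and −2.11). Higher in the negative library were Ing3 (556 against 120 counts, log2 ratio 2.07 with limits of 1.79 and 2.37) and Mrgbp (249 against 86 counts, log2 ratio 1.40 with limits of 1.04 and 1.77), both subunits of TIP60.

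After these values were seen, the 15 genes of the INO80 complex were set side by side. Of the 14 measured, 4 were past the rule with the positive library higher (Ino80, Ino80c, Nfrkb and Yy1), beside 12.3% of all measured genes. With the negative library higher there were 0, beside 12.6%, and the median log2 ratio was −0.19. Actr5, an actin-related subunit, had 0 against 14 counts, and Tfpt 124 against 275 counts (log2 ratio −1.29 with limits of −1.61 and −0.98). Actr8, another actin-related subunit, had the opposite lean with 826 against 342 counts (log2 ratio 1.13 with limits of 0.95 and 1.32). Uchl5 (log2 ratio −0.20), Mcrs1 (log2 ratio 0.11) and the helicase genes Ruvbl1 (log2 ratio 0.55) and Ruvbl2 (log2 ratio −0.03), the last of which serve several complexes, differed by less than 2-fold. The subunits of this complex therefore did not share 1 direction.

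**Figure D3:**
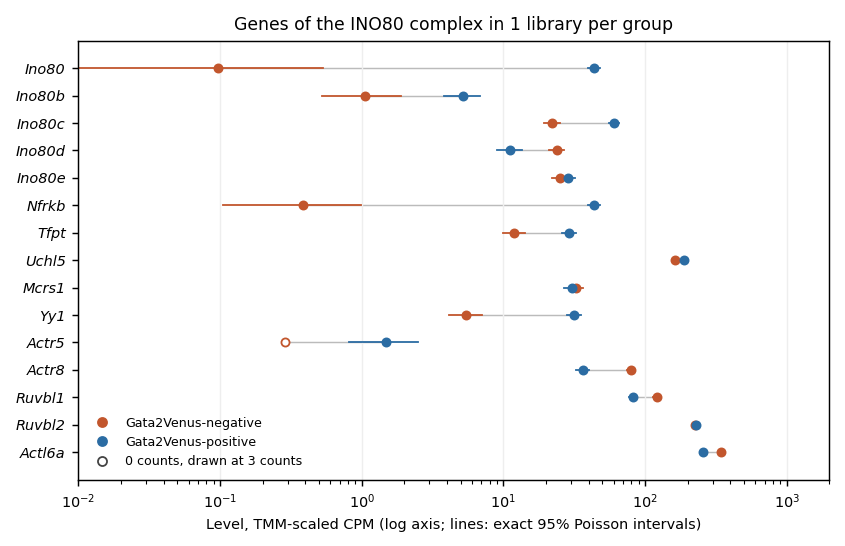
Levels of the 15 genes of the INO80 complex are plotted in TMM-scaled CPM on a log axis, in the negative (orange) and positive (blue) library, with exact 95% Poisson intervals (that of Ino80 runs off the left edge), and an open symbol for 0 counts. Ino80 and Nfrkb lie at 1 and 4 counts in the negative library against 411 and 415 in the positive, Ino80b, Ino80c, Tfpt, Yy1 and Actr5 lie to the left in the negative library, and Actr8, Ino80d, Ruvbl1 and Actl6a to the right.

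The 3 remaining helicases of the SNF2 family had modestly higher values in the negative library, and 0 were past the rule. Hells, needed for DNA methylation and abundant in dividing cells, was at 169 CPM with limits of 161 and 177 against 125 CPM with limits of 118 and 132 (log2 ratio 0.43 with limits of 0.33 and 0.54). Smarcad1, which restores silent chromatin after replication, was at 116 against 99.2 CPM (log2 ratio 0.23), and Smarcal1, which restarts stalled replication forks, at 51.7 against 38.4 CPM (log2 ratio 0.43). Beside them, 12 marker genes of S and M phase summed to 5546 and 5393 CPM, 0 of the 12 were past the rule, and their part in the Hells ratio was not tested. Of 11 other SNF2 helicases Zranb3, a fork helicase, was higher in the negative library (761 against 252 counts, log2 ratio 1.46), and Rad54l2 (8 against 262 counts, log2 ratio −5.17), Hltf (138 against 391 counts, log2 ratio −1.64) and Shprh (121 against 353 counts, log2 ratio −1.68) were higher in the positive library. All of these were past the rule, beside 12.6% and 12.3% of all measured genes in the negative and positive direction.

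Among the genes of BET proteins, which carry paired bromodomains and recruit the elongation factor P-TEFb, Brd2 and Brd3 were close to even and not past the rule. Brd2 was at 315 CPM with limits of 304 and 326 against 280.1 CPM with limits of 269.5 and 291 (log2 ratio 0.17 with limits of 0.10 and 0.24). Brd3 was at 212 against 196 CPM (log2 ratio 0.11 with limits of 0.02 and 0.20). Brdt (chromosome 5, 107331159 to 107387058), the BET gene known from male germ cells, had 80 against 0 counts. The lower limit of its log2 ratio was 4.27, but its 7.68 CPM stayed under the 10 CPM of the rule. Of the 8 germ cell markers 6 were past the rule in the same direction, among them Dazl (195 against 0 counts), Ddx4 (193 against 1 counts) and Dppa3 (983 against 1 counts). Nanos3 was not past the rule (39 against 21 counts), and Prdm1 had the lower value in the negative library (109 against 133 counts). Their part in the Brdt count, and in those of Dpf3 and Arid5a, was not tested. Of the other BRD genes, Brd8, a subunit of the EP400 complex, was at 186 against 128 CPM (log2 ratio 0.54), and Brd1, a scaffold of histone acetyltransferases, at 8.64 against 11.9 CPM (log2 ratio −0.47).

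Bromodomain genes outside the symbol pattern had 2 of 19 measured genes past the rule with the negative library higher and 1 with the positive. These counts stand beside 12.6% and 12.3% of all measured genes, and the median log2 ratio of the 19 was 0.32. Brpf1 had 499 against 116 counts (log2 ratio 1.97 with limits of 1.67 and 2.27) and Brpf3 150 against 34 counts (log2 ratio 2.003 with limits of 1.46 and 2.58). These are paralogues of Brd1, whose own ratio had the opposite sign. Atad2b had 174 against 387 counts (log2 ratio −1.29 with limits of −1.56 and −1.03). Among 5 genes of P-TEFb and its inhibitory particle, Hexim1, an inhibitor, had 66 against 169 counts and was past the rule (log2 ratio −1.50 with limits of −1.93 and −1.08). Ccnt1 (log2 ratio −0.28) and Ccnt2 (log2 ratio −0.96 with limits of −1.10 and −0.81) had the same lean without passing the rule. The kinase gene Cdk9 was at 20.9 against 13.3 CPM (log2 ratio 0.65), and Larp7 had a log2 ratio of 0.19.

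ARID proteins outside BAF went both ways, with a median log2 ratio of −0.04 over 6 genes. Arid4b (chromosome 13, 14063232 to 14199603), a subunit of the Sin3 histone deacetylase complex, had 534 (negative) against 1187 (positive) counts and was 2.45-fold lower on the negative side (log2 ratio −1.29 with limits of −1.44 and −1.14). Its paralogue Arid4a was at 59.8 against 87.9 CPM (log2 ratio −0.55), also lower in value. Arid3a, a factor of B cells and fetal blood stem cells, was at 32.9 against 23.7 CPM (log2 ratio 0.48) and Arid3b at 110.2 against 69.6 CPM (log2 ratio 0.66). Arid5a (chromosome 1, 36307733 to 36324029), which also stabilises messenger RNA of inflammatory genes, had 107 against 1 counts (log2 ratio 6.60 with limits of 4.09 and 11.92), at 10.3 against 0.106 CPM. Arid5b, known from fat and lymphoid cells, had 569 against 817 counts (log2 ratio −0.66), the opposite lean.

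The start regions of the 4 remodeler genes at or near 0 counts in only 1 library, with at least 50 counts in the other, are shown because these genes differed most in detection. They come from RefSeq, build GRCm38.p6, are written 5′ to 3′ on the strand of the gene, and hold the 250 bases before the RefSeq start, or 215 bases for Brdt, where the last 35 bases lie in an annotated exon. Capitals mark matches on either strand to the CCAAT box (CCAAT), the GC box (GGGCGG), the GATA motif (GATAA), the TATA box (TATAAA) or the E-box (CACGTG).
Ino80 (chr2:119477688-119477937, minus strand): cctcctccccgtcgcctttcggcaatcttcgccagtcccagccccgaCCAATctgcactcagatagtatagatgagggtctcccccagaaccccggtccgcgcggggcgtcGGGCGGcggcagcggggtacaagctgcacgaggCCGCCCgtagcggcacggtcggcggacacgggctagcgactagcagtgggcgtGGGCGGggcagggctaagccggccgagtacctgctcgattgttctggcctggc
Dpf3 (chr12:83487737-83487986, minus strand): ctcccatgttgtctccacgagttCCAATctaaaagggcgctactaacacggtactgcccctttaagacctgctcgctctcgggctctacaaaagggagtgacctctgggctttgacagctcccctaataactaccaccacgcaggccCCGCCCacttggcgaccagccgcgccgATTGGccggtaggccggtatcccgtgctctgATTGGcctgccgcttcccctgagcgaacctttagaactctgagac
Arid5a (chr1:36307483-36307732, plus strand): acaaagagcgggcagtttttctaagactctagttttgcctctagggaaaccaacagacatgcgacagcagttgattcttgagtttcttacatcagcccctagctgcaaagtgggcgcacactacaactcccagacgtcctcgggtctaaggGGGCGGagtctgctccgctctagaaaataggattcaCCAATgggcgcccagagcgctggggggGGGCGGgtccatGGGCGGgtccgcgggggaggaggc
Brdt (chr5:107330944-107331158, plus strand): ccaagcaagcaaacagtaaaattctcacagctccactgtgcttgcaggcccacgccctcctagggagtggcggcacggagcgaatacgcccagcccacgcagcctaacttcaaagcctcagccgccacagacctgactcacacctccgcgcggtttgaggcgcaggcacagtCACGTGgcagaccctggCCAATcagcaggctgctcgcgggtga
All 4 windows held CCAAT, which 33.8% of 32851 windows of 250 bases hold, and Ino80, Dpf3 and Arid5a held GGGCGG, which 32.7% hold. Brdt held CACGTG, found in 6.02% of windows. None of the 4 held the GATA motif or the TATA box, found in 22.6% and 12.4% of windows, and no match overlapped another. The windows had 28 (Ino80), 16 (Dpf3), 13 (Arid5a) and 14 (Brdt) CpG sites, beside a median of 6 over all windows. Those 32851 windows were not limited to genes measured here, and the window of Brdt is shorter, so these comparisons are between unlike sets. The gene seen in the positive library and the 3 seen in the negative library thus shared the CCAAT letters, and a match is no evidence of a bound factor.

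The balance between paralogues was then compared, since the ratio of ratios needs neither scaling between libraries nor gene length. Shares of a pair below are of levels per exon length. Of 24 pairs fixed for comparison 23 had both genes in the tables. In 11 of the 23 the interval of the ratio of ratios lay wholly beyond 2-fold, in 3 towards the first gene among negative cells, in 8 towards the first gene among positive cells. No background for pairs of genes was computed, so these counts describe the pairs only.

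In BAF, Arid1a made up 54.3% (negative) against 95.3% (positive) of the pair with Arid1b (log2 ratio of ratios −4.10 with limits of −4.51 and −3.71). Arid1a and Arid1b were thus near parity in the negative library, whereas Arid1a prevailed in the positive one. Smarcc1 took 54.5% (negative) against 77.3% (positive) of the Smarcc pair (log2 ratio of ratios −1.51 with limits of −1.69 and −1.33). Dpf2 took 89.7% (negative) against 99.7% (positive) of the pair with Dpf3 (log2 ratio of ratios −5.04 with limits of −8.10 and −3.15), so it prevailed in both. The ATPase pair kept a closer balance, with Smarca4 at 96.2% (negative) against 97.2% (positive) (log2 ratio of ratios −0.44 with limits of −0.67 and −0.21), as did Smarcd1 and Smarcd2 (log2 ratio of ratios −0.24 with limits of −0.49 and 0.00). Smarcd1 against Smarcd3 was also beyond 2-fold, but it rests on 12 counts of Smarcd3. Arid1a against Arid2 was beyond 2-fold too (log2 ratio of ratios −1.34 with limits of −1.51 and −1.17), with Arid1a at 30.6% (negative) against 52.7% (positive), and Brd7 against Brd9 was not (log2 ratio of ratios −1.20 with limits of −1.42 and −0.97).

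Among the CHD genes, Chd1 took 30.4% (negative) against 79.4% (positive) of the pair with Chd2 (log2 ratio of ratios −3.15 with limits of −3.39 and −2.91), so the more abundant gene differed between the libraries. Chd9 took 16.8% (negative) against 48.8% (positive) of the pair with Chd6 (log2 ratio of ratios −2.24 with limits of −2.52 and −1.97). Chd4 took 86.5% (negative) against 95.3% (positive) of the pair with Chd3 (log2 ratio of ratios −1.67 with limits of −1.97 and −1.38), and Chd8 and Chd7 kept a close balance (log2 ratio of ratios −0.26 with limits of −0.48 and −0.03). Of the ISWI partners, Baz1a took 13.99% (negative) against 31.1% (positive) of its pair with Baz1b (log2 ratio of ratios −1.47 with limits of −1.72 and −1.23), and Baz2a 52.9% (negative) against 28.9% (positive) of its pair with Baz2b (log2 ratio of ratios 1.47 with limits of 1.26 and 1.68). The ISWI ATPase genes Smarca5 and Smarca1 stayed within 2-fold (log2 ratio of ratios 0.25 with limits of 0.01 and 0.50). Brd2 and Brd3 had the pair ratio nearest to unchanged, with Brd2 at 58.2% (negative) against 57.2% (positive) (log2 ratio of ratios 0.06 with limits of −0.06 and 0.17). In the other ARID genes Arid5a against Arid5b was the widest pair (log2 ratio of ratios 7.26 with limits of 4.74 and 12.58), resting on 1 count of Arid5a in the positive library, while Arid4a against Arid4b (log2 ratio of ratios 0.74 with limits of 0.52 and 0.95) and Arid3a against Arid3b (log2 ratio of ratios −0.19 with limits of −0.47 and 0.10) stayed within 2-fold.

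**Figure D4:**
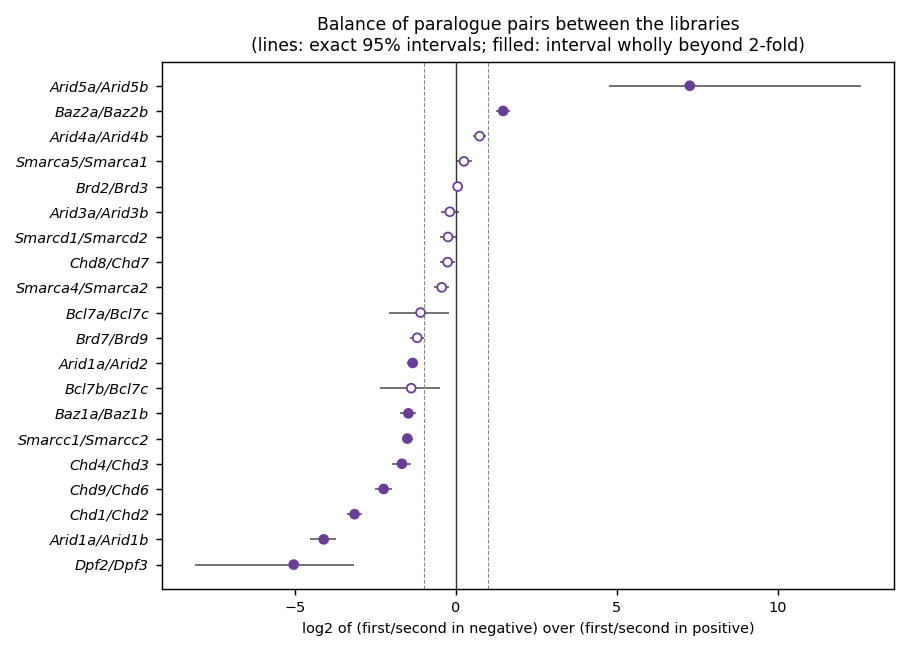
For 20 pairs of paralogues with counts in both libraries, points show the log2 of the first-to-second count ratio in the negative library over that in the positive library, with exact 95% intervals, and filled points have intervals wholly beyond 2-fold (dashed lines). Dpf2/Dpf3, Arid1a/Arid1b and Chd1/Chd2 lie farthest to the left, Arid5a/Arid5b farthest to the right, and Brd2/Brd3 at 0.06.

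The log2 ratios, taken with their sign, bore little rank relation to exon length or level. Across the 56 measured remodeler genes with counts in both libraries, Spearman's rho of the log2 ratio was 0.033 with exon length and −0.053 with mean CPM, beside 0.051 and 0.013 across 10515 genes. Such a coefficient cannot show whether the size of a difference in either direction changes with level. Shares past the rule by mean level are given for the negative, then the positive direction. Below 10 CPM they were 12.3% and 12.3% of all measured genes, beside 2 and 0 of 5 remodeler genes. At 10 to 50 CPM they were 17.5% and 18.2%, beside 2 and 3 of 16. At 50 to 100 CPM they were 10.5% and 8.36%, beside 4 and 2 of 16. At 100 to 200 CPM they were 7.24% and 5.86%, beside 3 and 0 of 12. From 200 CPM upwards the shares were 2.74% and 2.63%, and 0 of 8 remodeler genes were past the rule. These are descriptions across genes of the same 2 libraries, and genes are not independent replicates.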

How the data were processed

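RNA of Gata2Venus-negative and Gata2Venus-positive cells was sequenced, 1 library each. Per the labels' protocols, RNA was extracted with mirVana, and cDNA was made by SMARTER, and no molecular identifiers are named. TopHat, Cufflinks, HTSeq and mm10 are named per the submitters' processing notes, and for versions, annotation and use of strand nothing is given in the sources used here. The authors deposited 1 table per library of raw counts, whole numbers by gene symbol. Rows for reads of no gene, mainly alignments that were not unique (45.5% and 48.2% of each table), were left out. Genes totalled 10135400 and 9715131 counts, and 3 counts equal 0.288 and 0.317 CPM. Libraries were scaled with edgeR 4.0.16 (TMM) in R 4.3.3. Ratios have Clopper-Pearson, levels Poisson and paralogue balances conditional exact 95% intervals. Positions and exon lengths are from GENCODE vM21 (mm10), to which all 60 genes matched by symbol. Exon length is the union of all annotated exons of a gene, so levels per length and shares of pairs depend on the annotation. Named were members past the rule of size or at most 3 counts in 1 library and at least 100 in the other, the catalytic subunits, the 2 most abundant of role groups without such genes, and up to 4 genes past the rule per partner list. Other members and partner genes are given for completeness and were named after their values were seen. Members and lists were chosen with earlier results of these data known. Alternatives were 3 scalings (total counts, DESeq2 1.42.0 size factors, TMM without the 100 most abundant genes), other filters and fold limits, thinning to equal depth, added counts and an assumed spread between libraries. The values of 1 member are not reported here, though counts over all members include it. Steps were tested on simulated data with known changes.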

Additional observations from a re-analysis of the deposited data

How the results depend on the processing

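The direction of each gene past the rule was unchanged under the 3 scalings, and under each of them the same 11 and 5 genes were past it in the negative and positive direction. The median log2 ratio of the remodeler genes ranged from 0.33 (deeper library thinned) to 0.43 (scaling by total counts). With the interval beyond 4-fold the counts fell to 3 and 1 of 57 (5.93% and 5.99% of all measured genes), and with an assumed coefficient of variation of 0.4 also to 3 and 1 (5.09% and 5.44%), in both cases Arid1b, Dpf3 and Arid5a on the negative side and Ino80 on the positive side. Filters of 1 CPM and 10 counts added Bcl7c and Brdt on the negative and Ino80b on the positive side (13 and 6 genes, beside 17.6% and 18.3% of all measured genes), and a filter of 50 CPM left 8 and 4 (beside 5.01% and 4.34%). With no level filter Smarcd3 was also past the rule on the positive side (13 and 7 genes, beside 16.7% and 18.1% of 13853 genes). Asking for 0 counts in 1 library and at least 50 in the other gave 1 gene, Brdt, which was not among the 3 of the main setting. Those 3 (Ino80, Dpf3 and Arid5a) had 1 or 2 counts in the lower library and dropped out. Brdt entered because its 80 counts lie under the main limit of 100. The share over all measured genes is not given for this setting. Paralogue pairs beyond 2-fold numbered 12 after thinning, beside 11. No paired analysis was possible because each group has 1 library, and for the same reason no library could be left out. Depth limits Dpf1, Smarcd3 and Chd5, which had at most 12 counts in all.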
